A study of Mus musculus with 6 samples.

Results

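The 6 genes described here encode the peptide hormone adrenomedullin and the proteins that receive or remove it, namely Adm, Calcrl, Ramp1, Ramp2, Ramp3 and Ackr3. They were chosen by the FPKM of Adm and Ramp2, both lower in the KO-labelled libraries, and then found by gene symbol among 47086 loci. The difference between genotypes in any of the 6 is therefore a description and carries no test. Each of the 6 symbols had 1 locus in the table. The RNA came from primary hippocampal cultures of newborn mice after 14 days in vitro, with 3 libraries from wild type (WT) and 3 from *Fmr1* knockout (KO) mice, and both genotypes are labelled C57BL/6. *Fmr1* encodes FMRP, the RNA-binding protein lost in fragile X syndrome. No treatment is given for these libraries. Levels are in FPKM (fragments scaled by transcript length and by the mapped fragments of the library). Levels of different genes can be set side by side only as far as the transcript lengths used are right. The annotation behind those lengths is not given.

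Adrenomedullin is a secreted peptide cut from a longer precursor, best known for widening blood vessels and for its part in the growth of the vessel wall. It acts on the calcitonin receptor-like receptor, the product of Calcrl, which reaches the cell surface and gains its ligand preference only with a receptor activity-modifying protein (RAMP). With RAMP1 the pair prefers calcitonin gene-related peptide (CGRP), and with RAMP2 or RAMP3 it is an adrenomedullin receptor. Both couple mainly to the stimulatory G protein and cAMP. The atypical chemokine receptor ACKR3 binds adrenomedullin and the chemokine CXCL12 and takes them up without G protein signalling. In brain, these components are known from vessels, glia and neurons.

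Before the 6 genes, the labels were checked. *Fmr1* had 19.0, 19.5 and 19.7 FPKM in WT and 23.1, 21.8 and 18.5 FPKM in the libraries labelled *Fmr1* KO. The change was 0.12 on the log2 scale with a standard error of 0.08 (adjusted p = 0.536, limma, Benjamini-Hochberg over 13195 loci), so its level does not check the labels, and every direction below rests on them. The excitatory neuron markers Slc17a7 and Camk2a had means of 287 and 491 FPKM in WT, and the astrocyte marker Gfap had 576 FPKM, so the RNA, labelled as hippocampal neuron, held transcripts of both neurons and glia. All 4 Y-linked genes looked at were higher in the KO-labelled libraries, and 3 of them passed an adjusted p of 0.05 in limma, namely Eif2s3y (9.53 FPKM in WT and 21.03 FPKM in the KO-labelled libraries on average, adjusted p = 0.000183), Ddx3y (adjusted p = 0.00374) and Kdm5d (adjusted p = 0.0368), while Uty had an adjusted p of 0.0630. The sex of the pups behind each library is not stated, so a difference in sex make-up and a difference in genotype cannot be told apart in any comparison here. The C57BL/6 substrain of the mice is not stated either. FPKM tables hold no read numbers, so the depth of the libraries is unknown.

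None of the 6 genes lies on the X chromosome that carries *Fmr1*. In the deposited coordinates (GRCm38), Adm spans 110627669 to 110629819 on chromosome 7, on the plus strand, and Calca, the gene of calcitonin and CGRP, lies 3.996 Mb away on the same chromosome. Ramp1 (chromosome 1, 91179822 to 91225196, plus strand) and Ackr3 (chromosome 1, 90203980 to 90215724, plus strand) are 0.964 Mb apart. Ramp2 (101246334 to 101248250) and Ramp3 (6650148 to 6677478) are both on the plus strand of chromosome 11 but 94.6 Mb apart. Calcrl is on the minus strand of chromosome 2, from 84330626 to 84425426.

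The gene models set limits on 3 of these levels. In GENCODE M21 the Adm gene has 4 exons in its first-listed transcript, which is 1390 bases long, and the antisense transcript Gm28863 crosses it. The Ramp3 locus of the table starts where the antisense pseudogene Gm11978 starts, upstream of the annotated Ramp3 gene at 6658521, and Gm11978 itself had between 0.0836 and 0.382 FPKM. The library type is not given, so reads of these antisense partners cannot be told apart from those of Adm and Ramp3. The annotated Ramp2 gene runs to 101259546, past the end of the Ramp2 locus of the table, and overlaps in that stretch the locus of its neighbour Vps25, whose log2 change was 0.07 (limma, adjusted p = 0.740).

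Because Adm and the RAMP genes were lower together, the bases just before their starts are shown, and Calcrl is shown beside them as the receptor gene whose level did not move with them. The sequences are the 250 bases before the RefSeq start on GRCm38.p6, 5′ to 3′ on the strand of the gene. RefSeq promoters matched 5 of the 6 genes, and Ramp2 is named only. The RefSeq start of Calcrl lies inside the gene as annotated in GENCODE M21, which reaches to 84425411. Part of the Calcrl window is therefore inside that annotated gene. The Ramp3 window also ends just past the GENCODE start of Ramp3 at 6658521. Capitals mark a GC box (GGGCGG) or a TATA sequence (TATAA), each searched on both strands, where the reverse forms are CCGCCC and TTATA.
Adm (chr7:110627407-110627656, + strand): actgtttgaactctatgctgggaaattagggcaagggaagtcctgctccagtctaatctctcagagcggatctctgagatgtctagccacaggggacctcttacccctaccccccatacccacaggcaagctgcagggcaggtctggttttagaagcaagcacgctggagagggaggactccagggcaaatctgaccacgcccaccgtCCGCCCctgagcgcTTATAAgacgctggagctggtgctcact
Ramp1 (chr1:91179572-91179821, + strand): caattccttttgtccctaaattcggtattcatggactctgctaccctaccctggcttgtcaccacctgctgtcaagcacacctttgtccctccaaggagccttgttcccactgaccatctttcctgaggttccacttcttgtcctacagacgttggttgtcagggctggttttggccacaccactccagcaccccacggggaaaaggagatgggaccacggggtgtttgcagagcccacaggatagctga
Ramp3 (chr11:6658283-6658532, + strand): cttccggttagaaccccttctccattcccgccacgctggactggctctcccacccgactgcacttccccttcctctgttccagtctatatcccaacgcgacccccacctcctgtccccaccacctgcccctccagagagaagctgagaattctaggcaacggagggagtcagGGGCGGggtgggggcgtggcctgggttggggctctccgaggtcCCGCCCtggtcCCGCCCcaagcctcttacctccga
Calcrl (chr2:84425267-84425516, - strand): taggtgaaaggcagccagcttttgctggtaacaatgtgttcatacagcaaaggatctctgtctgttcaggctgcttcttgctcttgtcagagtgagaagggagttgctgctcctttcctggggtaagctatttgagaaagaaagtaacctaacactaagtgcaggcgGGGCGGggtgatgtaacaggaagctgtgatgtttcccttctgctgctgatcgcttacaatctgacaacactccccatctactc

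In these windows, Adm had the forward and reverse TATA letters overlapping in 1 stretch from position -28 to -23 before the start and a GC box from -42 to -37. Ramp3 had 3 GC boxes, at -78, -35 and -24, and Ramp1 had neither sequence. Calcrl had 1 GC box, at -83, in the part of its window that lies inside the GENCODE gene. Ackr3, not printed, had 1 GC box and 1 TATA sequence. Of 32851 RefSeq promoter windows of this length, 32.7% hold the GC box letters and 22.8% the TATA letters. The core letters ACGTG of the hypoxia response element and the half-site TGACG of the cAMP response element, each searched on both strands, were in none of the 5 windows, and 16.6% and 17.8% of all windows hold them. Bases farther from the starts were not searched, so any of these letters may lie outside the windows. The GC box was in the windows of Adm and Ramp3 but not of Ramp1.

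**Figure D1:**
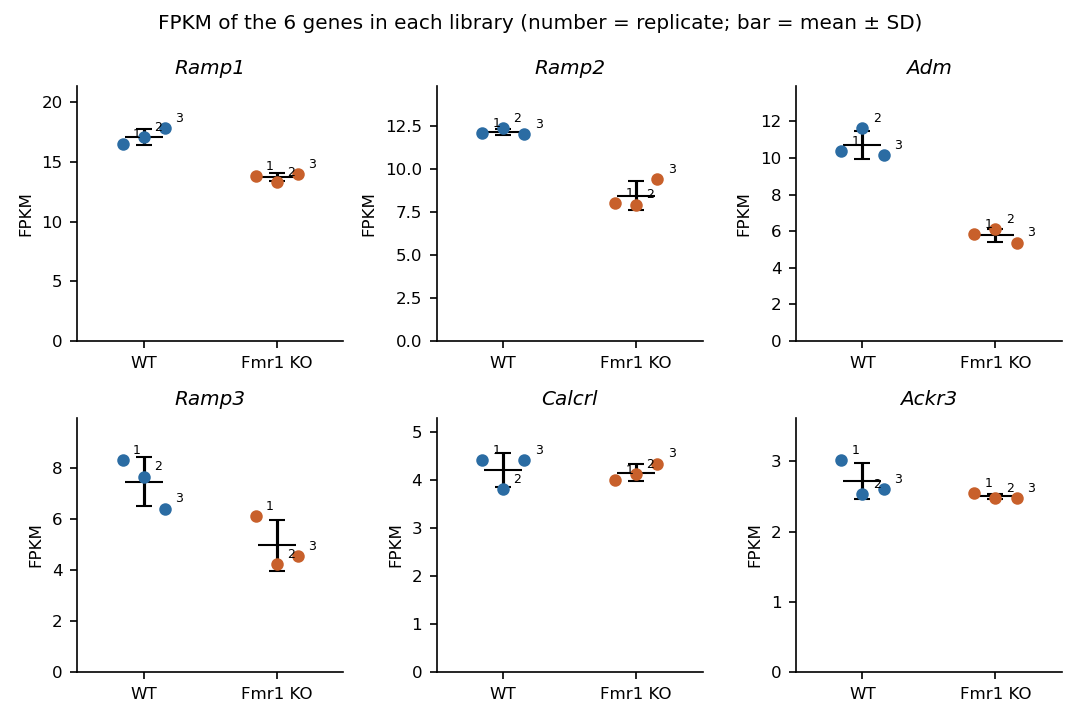
FPKM (vertical axes, each from 0) of the 6 genes in 3 WT (blue) and 3 KO-labelled (orange) libraries; numbers are replicates and black bars give the mean ± SD. Adm, Ramp1, Ramp2 and Ramp3 do not overlap between genotypes, whereas Calcrl and Ackr3 do.

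Of the 6 genes, 4 had all 3 KO-labelled libraries below all 3 WT libraries, namely Adm, Ramp1, Ramp2 and Ramp3, and none had them above. Of the 13195 loci with a mean of at least 1 FPKM in either genotype, 10.3% had all KO-labelled libraries below WT and 10.8% had them above. The rule used this contrast, so nothing is read from the count. All 6 genes had a mean of at least 1 FPKM in each genotype, so none was measured only through the genotype in which it was higher. Log2 changes, given here with their standard errors (SE) and beside pathway genes as value ± SE, are KO-labelled minus WT on the scale of log2(FPKM + 0.1), which slightly understates changes at low levels. In bulk RNA, fewer cells of a type and less RNA per cell cannot be told apart.

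Adm, the ligand gene, had 10.4, 11.6 and 10.1 FPKM in WT and 5.83, 6.10 and 5.37 FPKM in the KO-labelled libraries. Its highest KO-labelled library was well below its lowest WT library. The mean was 10.7 ± 0.794 FPKM in WT and 5.77 ± 0.369 FPKM in the KO-labelled libraries (SD, n = 3), which is 46.2% lower. The log2 change was -0.88 (standard error 0.08). Of the 13195 loci, 0.364% had a lower log2 change, but Adm was chosen by this contrast, so nothing is read from its rank.

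Ramp2, whose protein makes Calcrl into the main adrenomedullin receptor, had 12.1, 12.4 and 12.1 FPKM in WT and 8.02, 7.94 and 9.41 FPKM in the KO-labelled libraries. The WT libraries lay close together, and KO-labelled replicate 3 was nearest to them. The mean fell from 12.2 ± 0.171 FPKM to 8.46 ± 0.828 FPKM (SD, n = 3), 30.5% lower, with a log2 change of -0.52 (standard error 0.08). Without KO-labelled replicate 3 the log2 change was -0.60.

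Ramp3, the other partner that gives an adrenomedullin receptor, had 8.32, 7.68 and 6.42 FPKM in WT and 6.13, 4.26 and 4.55 FPKM in the KO-labelled libraries. The genotypes nearly met, since the lowest WT library and KO-labelled replicate 1 were next to each other. The mean was 7.47 ± 0.968 FPKM in WT and 4.98 ± 1.01 FPKM in the KO-labelled libraries (SD, n = 3), 33.4% lower. The log2 change of -0.59 had the largest standard error of the 6 genes, 0.15, and ranged from -0.74 without KO-labelled replicate 1 to -0.48 without KO-labelled replicate 2.

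Ramp1, the partner for the CGRP receptor, had 16.5, 17.1 and 17.8 FPKM in WT and 13.8, 13.3 and 14.0 FPKM in the KO-labelled libraries. Both groups were tight and did not overlap. The mean was 17.1 ± 0.671 FPKM in WT and 13.7 ± 0.332 FPKM in the KO-labelled libraries (SD, n = 3), 19.9% lower. The log2 change was -0.32 (standard error 0.06), the smallest of the 3 RAMP genes.

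Calcrl, the receptor that all 3 RAMPs share, had 4.41, 3.81 and 4.42 FPKM in WT and 3.997, 4.12 and 4.34 FPKM in the KO-labelled libraries. The libraries of both genotypes were interleaved. The mean was 4.21 ± 0.349 FPKM in WT and 4.15 ± 0.173 FPKM in the KO-labelled libraries (SD, n = 3), and the log2 change was -0.02 (standard error 0.09).

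Ackr3, the uptake receptor, had 3.02, 2.53 and 2.60 FPKM in WT and 2.55, 2.48 and 2.47 FPKM in the KO-labelled libraries. The highest KO-labelled library was above the lowest WT library, so the groups overlapped. The mean was 2.72 ± 0.262 FPKM in WT and 2.50 ± 0.0408 FPKM in the KO-labelled libraries (SD, n = 3). The log2 change was -0.11 (standard error 0.11), and it was -0.04 without WT replicate 1, the highest library.

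The genes were not chosen by comparing levels of different genes within a library. Their order was taken from the means of the same libraries, so the p-values below are no test of an order set beforehand. Pairs with Adm or Ramp2 also hold values that the rule used. Averaged over all 6 libraries, the order was Ramp1 at 15.4 FPKM, Ramp2 at 10.3 FPKM, Adm at 8.24 FPKM, Ramp3 at 6.23 FPKM, Calcrl at 4.18 FPKM and Ackr3 at 2.61 FPKM. For 4 of the 5 neighbouring pairs the higher gene was higher in 6 of 6 libraries, with an adjusted p of 0.0391 each (exact two-sided sign-flip permutation test, Benjamini-Hochberg over 5 pairs). The unadjusted p of these pairs was 0.0313, the smallest that 6 libraries allow. The exception was Adm over Ramp3, which held in 5 of 6 libraries (exact adjusted p = 0.0625), as KO-labelled replicate 1 had more Ramp3 than Adm. Over both genotypes, the mean log2 difference between neighbours was 0.59 ± 0.14 for Ramp1 over Ramp2, 0.36 ± 0.25 for Ramp2 over Adm, 0.37 ± 0.27 for Adm over Ramp3, 0.52 ± 0.40 for Ramp3 over Calcrl and 0.66 ± 0.10 for Calcrl over Ackr3 (SD, n = 6). These differences varied with genotype. Ramp3 was above Calcrl by 0.81 in WT and 0.24 in the KO-labelled libraries, Adm above Ramp3 by 0.52 and 0.22, Ramp2 above Adm by 0.18 and 0.54, Ramp1 above Ramp2 by 0.49 and 0.70, and Calcrl above Ackr3 by 0.62 and 0.71. Calcrl, at 4.18 FPKM, was above 24.95% of the tested loci, and Ramp1 was above 63.3% of them.

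**Figure D2:**
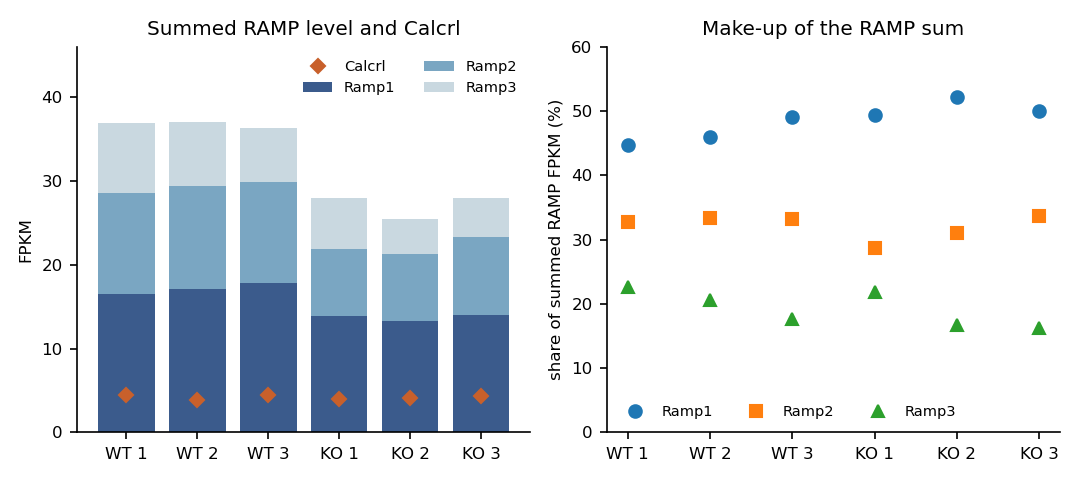
Left, stacked FPKM of Ramp1, Ramp2 and Ramp3 with Calcrl as diamonds, per library; right, the share of each RAMP in the RAMP sum in percent. The RAMP sum is 36.3 to 37.1 FPKM in WT and 25.5 to 28.0 FPKM in KO-labelled libraries, while the Calcrl diamonds stay between 3.81 and 4.42 FPKM.

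In every library the RAMP transcripts together outnumbered Calcrl per length. The summed FPKM of Ramp1, Ramp2 and Ramp3 was 36.9, 37.1 and 36.3 in WT and 28.0, 25.5 and 27.9 in the KO-labelled libraries. This sum was 8.35, 9.73 and 8.21 times the Calcrl level in WT, and 7.002, 6.19 and 6.43 times in the KO-labelled libraries, without overlap. The make-up of the sum differed less than its size. Ramp1 made up 44.7 to 49.1% of it in WT and 49.5 to 52.3% in the KO-labelled libraries. Ramp2 made up 32.7 to 33.3% and 28.7 to 33.7%, and Ramp3 made up 17.7 to 22.6% and 16.3 to 21.9%, so the shares of both adrenomedullin partners overlapped between genotypes. The ratio of Adm to Ramp2 was 0.859, 0.940 and 0.841 in WT and 0.727, 0.768 and 0.570 in the KO-labelled libraries. These ratios come from the same contrast and were not tested.

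Of the 6 related ligand and receptor genes, Calca and Crcp reached the minimum of 1 FPKM and were tested. Calca, whose transcripts encode calcitonin and CGRP, had 2.75, 4.21 and 3.79 FPKM in WT and 3.08, 4.501 and 2.95 FPKM in the KO-labelled libraries, with interleaved groups and a log2 change of -0.03 (SE 0.19, limma adjusted p = 0.958). Adm thus exceeded Calca by 2.67 to 3.77 times in WT and by 1.35 to 1.90 times in the KO-labelled libraries. Crcp, which encodes the receptor component protein of the CGRP receptor, had means of 13.1 FPKM and 12.8 FPKM, with a log2 change of -0.03 (SE 0.06, limma adjusted p = 0.892). The other 4 genes of the list were below 1 FPKM in every library and were not tested. Adm2, the gene of the sister peptide intermedin, had 0.396 to 0.590 FPKM in WT and 0.240 to 0.517 FPKM in the KO-labelled libraries. The second CGRP gene Calcb and the calcitonin receptor gene Calcr stayed at or below 0.437 FPKM and 0.0636 FPKM, and the amylin gene Iapp was listed at 0 in every library. No gene of this list passed an adjusted or an unadjusted p of 0.05.

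Enzymes that mature or clear such peptides were also compared. Of 9 genes, 6 were tested, with a median log2 change of -0.01, against 0.005 over all tested loci. None passed an adjusted p of 0.05 in limma. Over all tested loci, 7.77% were lower and 6.99% higher at an unadjusted p below 0.05. In this list 2 genes passed that p, both lower. Those were Pcsk1, a prohormone convertase, with 12.7, 15.4 and 13.5 FPKM in WT and 11.2, 10.6 and 9.64 FPKM in the KO-labelled libraries (-0.40 ± 0.09 on the log2 scale, limma adjusted p = 0.101), and Pam, the enzyme that amidates the end of peptides such as adrenomedullin, with 60.2, 64.4 and 60.3 FPKM and 55.0, 55.8 and 53.8 FPKM (-0.17 ± 0.05 on the log2 scale, limma adjusted p = 0.173). In both genes all KO-labelled libraries were below WT, as in 10.3% of all tested loci. The convertases Furin and Pcsk2, the carboxypeptidase Cpe and the endothelin-converting enzyme Ece1 had log2 changes between -0.04 and 0.05. The neprilysin gene Mme was at or below 0.581 FPKM in every library and was not tested. The insulin-degrading enzyme gene Ide has 2 loci in the table, of which the one taken lies on a scaffold and had 0.113 to 0.437 FPKM.

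RAMPs also bind other receptors. Of 9 such receptor genes, 3 were tested, and none passed an adjusted p of 0.05 in limma. At an unadjusted p below 0.05, Pth1r and Crhr1 were lower and without overlap. Over all tested loci, 7.77% were lower at that p and 10.3% were lower without overlap. Pth1r, the parathyroid hormone receptor, had 1.23, 1.31 and 1.04 FPKM in WT and 0.719, 0.775 and 0.656 FPKM in the KO-labelled libraries (-0.66 ± 0.20 on the log2 scale, limma adjusted p = 0.201). Pth1r reached 1 FPKM only in WT, so the minimum let it in through the genotype in which it was higher, and it is not counted as support for a lower list. Among the 3 tested genes the highest log2 change was that of Vipr1, a receptor for vasoactive intestinal peptide, at -0.16 (SE 0.13, limma adjusted p = 0.602). Crhr1, the corticotropin-releasing hormone receptor, was at -0.30 (SE 0.10, limma adjusted p = 0.213), and it was named after its values were seen.

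Downstream, the list of G protein, cAMP and trafficking genes had 20 tested genes with a median log2 change of 0.02. None passed an adjusted p of 0.05 in limma, while 3 were lower and 5 higher at an unadjusted p below 0.05. Over all tested loci, 7.77% were lower and 6.99% higher at that p. Gnas, the stimulatory G protein alpha subunit, had means of 664 FPKM in WT and 671 FPKM in the KO-labelled libraries. The lowest log2 change was that of Nsf, a vesicle fusion ATPase that binds RAMP3, at -0.22 (SE 0.06, limma adjusted p = 0.153). The highest was that of Rapgef3, the cAMP sensor Epac1, at 0.30 (SE 0.08, limma adjusted p = 0.164). The symbol Adrbk1 of this list is an older name of Grk2 and was counted once, and the arrestin gene Arrb2 was listed at 0 at both of its loci.

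For Ackr3, the list held its chemokine ligands and their other receptor. Cxcl12 had means of 2.30 FPKM in WT and 2.32 FPKM in the KO-labelled libraries (0.02 ± 0.13 on the log2 scale, limma adjusted p = 0.961). Cxcr4, the signalling receptor for CXCL12, had 3.22 FPKM and 3.03 FPKM (-0.07 ± 0.14 on the log2 scale, limma adjusted p = 0.857). Mif, which encodes a cytokine that also binds ACKR3, had 42.3, 36.3 and 33.2 FPKM in WT and 34.9, 25.1 and 27.3 FPKM in the KO-labelled libraries, with overlap. The log2 change of Mif was -0.36 (SE 0.13, limma adjusted p = 0.246). Cxcl11 was at or below 0.110 FPKM in every library.

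**Figure D3:**
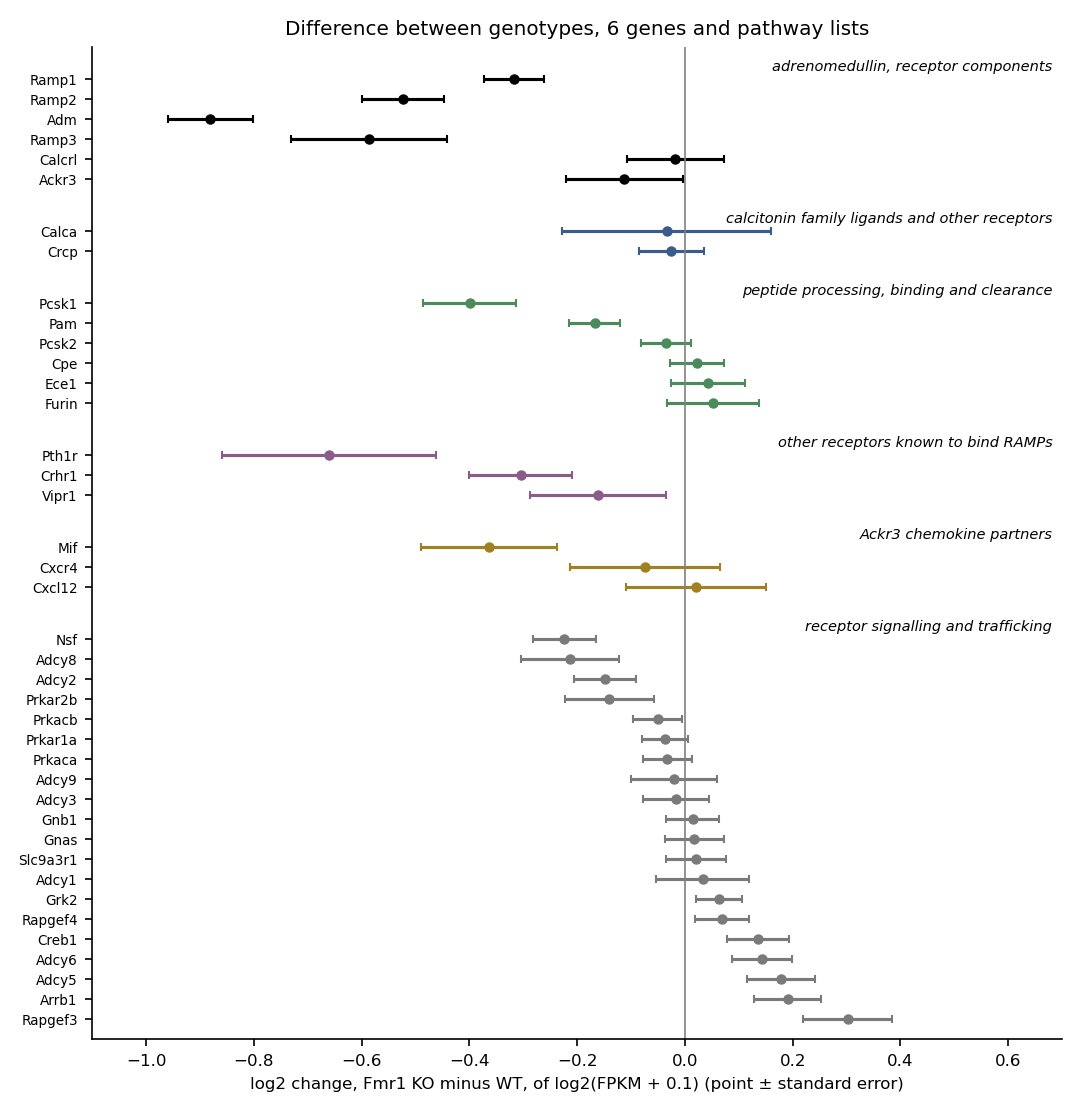
Log2 change of log2(FPKM + 0.1), KO-labelled minus WT (horizontal axis), with its standard error, for the 6 genes (black) and for the tested genes of 5 pathway lists (colours). Adm, chosen by this contrast, lies farthest to the left at -0.88, and no gene of the coloured lists passed an adjusted p of 0.05.

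Adm is a textbook target of hypoxia-inducible factors. Set beside it were 20 hypoxia response genes, among them Hif1a, Epas1 and Arnt, which encode subunits of these factors. The median log2 change of the 20 genes was -0.06, and none passed an adjusted p of 0.05 in limma. At an unadjusted p below 0.05, 3 genes, Epas1 included, were lower and 0 higher. The lowest was Car9, a carbonic anhydrase, with a log2 change of -0.24 (SE 0.10, limma adjusted p = 0.322), and the highest was Ndrg1 with 0.14 (SE 0.08, limma adjusted p = 0.465). Vegfa, a vessel growth factor gene, had 172, 178 and 173 FPKM in WT and 170, 175 and 159 FPKM in the KO-labelled libraries, with overlap. In this list 2 genes had all KO-labelled libraries below WT and 1 had them above, against 10.3% and 10.8% of all tested loci. Those were Slc2a1, the glucose transporter GLUT1, with 30.4, 30.2 and 29.5 FPKM in WT and 28.3, 26.2 and 26.0 FPKM in the KO-labelled libraries (limma adjusted p = 0.216), the collagen hydroxylase subunit gene P4ha1, with means of 41.6 and 38.7 FPKM (limma adjusted p = 0.377), and, above, the pyruvate dehydrogenase kinase gene Pdk1, with 21.6 and 23.2 FPKM (limma adjusted p = 0.376). Over the 6 pathway lists together, 54 of 69 loci were tested, none passed an adjusted p of 0.05 in limma, and 11, Pth1r included, were lower and 5 higher at an unadjusted p below 0.05. Over all tested loci, 0.265% passed an adjusted p of 0.05, with 0.174% lower and 0.0909% higher, and 14.8% passed an unadjusted p of 0.05, with 7.77% lower and 6.99% higher.

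Loci next to the 6 genes were looked at by position, a choice made after the values of the 6 genes were known. The 2 nearest tested loci on each side gave 22 neighbours. None of the 22 passed an adjusted p of 0.05 in limma, and 7 passed an unadjusted p of 0.05, against 14.8% of all tested loci. Of those, Swap70, Itgav, Lrrfip1 and Agap1 were higher, and Fam171b, Tfpi and Cntnap1 were lower. The nearest neighbours of Adm, Sbf2 at 12.7 kb and Ampd3 and Rnf141 at 136 kb, had log2 changes of 0.13, -0.05 and 0.03, and Swap70, at 344 kb, had 0.22 (SE 0.07, limma adjusted p = 0.225). The highest neighbour was Agap1, 309 kb from Ackr3, with 0.25 (SE 0.06, limma adjusted p = 0.117). Vps25, 5.36 kb from Ramp2, had 0.07, and Ube2f, 24.5 kb from Ramp1, had 0.05. The lowest neighbour was Tfpi, a coagulation inhibitor gene 7.43 kb from Calcrl, with -0.63 (SE 0.20, limma adjusted p = 0.220), while Calcrl itself had -0.02.

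The loci most like Adm in profile were found by the root mean square difference of log2(FPKM + 0.1), centred on each gene, over the 6 libraries. The 5 nearest were Slc14a1 (a urea transporter) at 0.07, Nptx2 (a neuronal pentraxin) at 0.07, Nnt (a mitochondrial transhydrogenase) at 0.10, Gjb6 (connexin 30) at 0.10 and Capg (an actin-capping protein) at 0.12. Nptx2 had 5.87, 6.84 and 5.86 FPKM in WT and 3.84, 3.78 and 3.17 FPKM in the KO-labelled libraries, so that, as in Adm, WT replicate 2 was highest and KO-labelled replicate 3 lowest. For Ramp2, Agt, Fhl2, Gcnt2 and Prelp were among the 5 nearest, each at 0.07. Agt, the angiotensinogen gene, had 2.77, 2.73 and 2.93 FPKM in WT and 1.76, 1.67 and 1.96 FPKM in the KO-labelled libraries, where KO-labelled replicate 3 was again the nearest to WT. Among 13194 other loci, Ramp2 ranked 61, Ramp3 87 and Ramp1 241 in likeness to Adm, whereas Ackr3 ranked 2435 and Calcrl 6333. In likeness to Ramp2, Ramp1 ranked 80, but Ramp3 only 1603 and Adm 1616. These likenesses rest on 6 libraries and largely on the difference between genotypes, and are a description.

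**Figure D4:**
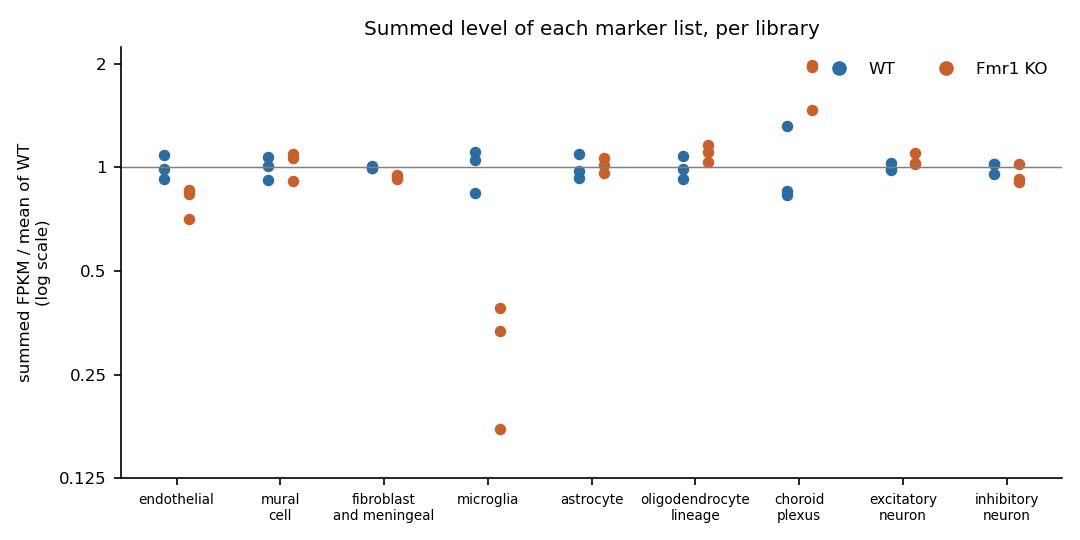
Summed FPKM of each marker list divided by its WT mean, on a log scale, per library (WT blue, KO-labelled orange). Microglia markers lie between 0.174 and 0.390 in the KO-labelled libraries and endothelial markers between 0.710 and 0.858, while the neuron and astrocyte lists stay between 0.909 and 1.10.

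Markers of some other cell types moved with genotype beside Adm and the RAMPs. The summed level of 13 microglia markers was 9.65, 7.36 and 9.14 FPKM in WT and 3.40, 1.52 and 2.93 FPKM in the KO-labelled libraries. Of the 11 of these genes above 0 in any library, 7 had all KO-labelled libraries below WT and 0 had them above. The shares over all loci above 0 in any library were 7.44% and 7%. Csf1r, Trem2, Tyrobp and Ptprc overlapped between genotypes. The means of Csf1r were 0.855 FPKM in WT and 0.706 FPKM in the KO-labelled libraries. Lyz2, a lysozyme gene of microglia and other myeloid cells, passed an adjusted p of 0.05 at 0.0360 in limma, and it reached 1 FPKM only in WT. This call was lost with any 1 library left out except *Fmr1* KO replicate 2. C1qa and C1qb were listed at 0 in KO-labelled replicate 2 only, and Tmem119 was at 0 in all 6 libraries. Aif1 was listed at 0 at each of its 4 loci, which is not read as a low level.

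The summed level of 14 endothelial markers was 14.2, 12.1 and 13.0 FPKM in WT and 11.0, 11.2 and 9.30 FPKM in the KO-labelled libraries, mostly from Egfl7. Over all loci above 0 in any library, 7.44% had all KO-labelled libraries below WT and 7% had them above. Of the 13 endothelial markers above 0, 4 had all KO-labelled libraries below WT, namely Pecam1, Tie1, Vwf and Eng, and 1, Slco1a4, had them above. The highest of these levels was 1.11 FPKM, for Pecam1 in WT replicate 1. The 2 endothelial markers that were tested, Egfl7 and Kdr, overlapped between genotypes. Egfl7 was at 6.01 to 9.64 FPKM, with a log2 change of -0.22 (SE 0.13, limma adjusted p = 0.455). Kdr had means of 1.04 FPKM in WT and 1.02 FPKM in the KO-labelled libraries (log2 change -0.003, SE 0.20, limma adjusted p = 0.997). The defining endothelial genes Cdh5 and Tek were at or below 0.373 FPKM in every library. Cldn5 was listed at 0 at both of its loci, as was the widely expressed Arrb2, so its 0 is not read as a low level. The part of microglia or endothelial cells in the levels of Adm and the RAMPs was not tested.

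The sum of 12 mural cell markers ranged from 24.2 to 28.3 FPKM in WT and from 24.1 to 28.8 FPKM in the KO-labelled libraries, with the largest part from Cspg4, which is also in the oligodendrocyte list. Of these 12 genes, 2 had all KO-labelled libraries below WT and 0 had them above, namely the smooth muscle gene Tagln, with means of 0.597 and 0.276 FPKM, and Abcc9, with 0.0542 and 0.0115 FPKM. The part of mural cells in the levels of Adm and the RAMPs was not tested. The fibroblast and meningeal sum ranged from 272 to 276 FPKM in WT and from 253 to 260 FPKM in the KO-labelled libraries. The fibroblast list shares Pdgfra with the oligodendrocyte list, and Thy1 in it is also a neuronal gene. Of its 7 tested genes, 4 were lower and 1 higher at an unadjusted p below 0.05, and none passed the adjusted p in limma. Of its 12 genes above 0, 3 had all KO-labelled libraries below WT and 3 had them above. The shares over all loci above 0 in any library were 7.44% and 7%. Those above included Igf2, with means of 0.381 FPKM in WT and 0.864 FPKM in the KO-labelled libraries, and Col1a2, with 0.303 and 0.485 FPKM. The choroid plexus sum was 1.40 to 2.20 FPKM in WT and 2.46 to 3.32 FPKM in the KO-labelled libraries. Of its 7 genes above 0, 4 had all KO-labelled libraries above WT and 0 had them below, namely Kcnj13, Aqp1, Clic6 and Otx2, with means of 0.0757 FPKM in WT and 0.568 FPKM in the KO-labelled libraries for Clic6. The astrocyte, oligodendrocyte, excitatory and inhibitory neuron sums overlapped between genotypes, though some single genes did not. Each of these lists had 10 genes. Among astrocyte genes, S100b was lower without overlap, with means of 13.25 and 10.25 FPKM (limma adjusted p = 0.0957), and 0 were higher without overlap. Without overlap, oligodendrocyte genes had 0 lower and 2 higher, excitatory neuron genes 2 and 2, and inhibitory neuron genes 1 and 2. The shares over all loci above 0 in any library were again 7.44% and 7%. Over all marker lists 53 of 97 loci were tested, and Lyz2 alone passed an adjusted p of 0.05 in limma. At an unadjusted p below 0.05, 13 were lower and 5 higher, against 7.77% and 6.99% of all tested loci. Of the 13, Lyz2, C1qa, C1qb and C1qc reached 1 FPKM on average only in WT, the genotype in which they were higher.

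**Figure D5:**
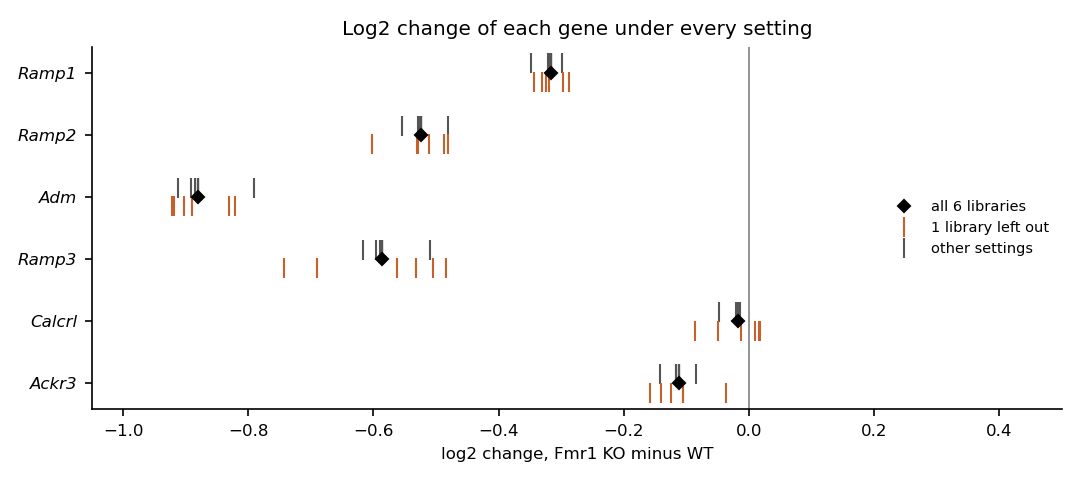
Log2 change, KO-labelled minus WT, of each gene with all 6 libraries (diamond), with 1 library left out (orange) and under the other settings (grey). Adm, Ramp1, Ramp2 and Ramp3 stay below 0 throughout, whereas Calcrl lies on both sides of 0. For Adm and the RAMPs, whose genotypes do not overlap, leaving out 1 library could not change the direction.

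For Adm and the RAMPs, all KO-labelled libraries lay below all WT libraries. Leaving out 1 library could therefore change only the size of their difference, not its direction. When libraries were dropped one at a time, the log2 change ranged from -0.92 to -0.82 for Adm, from -0.60 to -0.48 for Ramp2, from -0.74 to -0.48 for Ramp3 and from -0.34 to -0.29 for Ramp1. That of Calcrl ranged from -0.09 to 0.02 and crossed 0.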

How the data were processed

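RNA-seq was done on total RNA from hippocampal cultures, 3 WT and 3 *Fmr1* KO libraries. According to the methods, the authors cleaned reads with Fastx Clipper and sickle, used TopHat2 for alignment to GRCm38, and then Cufflinks and Cuffdiff. The table deposited by the authors gives FPKM for each library, plus group values, fold changes, p-values and q-values from Cuffdiff, which were not used. The sources used here do not give tool versions, the annotation, the library type or how libraries were scaled. The methods name male KO mice with WT littermates, and a pair of litters for biochemical work on cultured neurons, but tie neither litters nor pup sex to these libraries. The absolute depth is unknown, so the spread between libraries sets the precision, and that spread may be partly technical.

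Of 48100 rows, each of the 47086 loci was used once. A symbol with several loci took the one with the highest mean FPKM. Starts in the table count from 0 and are given here counting from 1. Loci with a mean of at least 1 FPKM in either genotype were compared as log2(FPKM + 0.1) with limma 3.58.1 in R 4.3.3, fitting genotype alone with a trend of variance on mean, and p-values were adjusted by Benjamini-Hochberg; the script was tested on simulated data. Neighbours in the order of levels, an order taken from the same libraries, were compared by exact sign-flip permutation. No set test was run. The 6 genes and all lists were chosen with earlier results of these data known. Named are the 6 genes, *Fmr1*, all genes of the ligand, processing and chemokine lists, called and extreme genes of the others, and the 5 loci most like Adm and Ramp2, of which some are not reported here. Gnas, Vegfa, Slc2a1, P4ha1, Pdk1, Epas1, S100b, Kdr, the neighbours and the low cell type markers were named after their values were seen. Promoters are from RefSeq (GRCm38.p6) and gene models from GENCODE M21. Alternatives were other pseudocounts (1, 0.01), other FPKM minimums (none, 5, or 1 over all libraries), median centring, rescaling without the noncoding RNA Bc1 (73.7 to 80.6% of summed FPKM), no trend, a replicate block, and each library left out.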

Additional observations from a re-analysis of the deposited data

How the results depend on the processing

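Under all 15 alternatives, the log2 change of Adm stayed between -0.92 and -0.79, of Ramp1 between -0.35 and -0.29, of Ramp2 between -0.60 and -0.48 and of Ramp3 between -0.74 and -0.48. Calcrl and Ackr3 had 14 alternatives, since both are under the FPKM minimum of 5. Calcrl was above 0 in 3 of them (without WT replicate 1, WT replicate 3 or *Fmr1* KO replicate 1), and Ackr3 ranged from -0.16 to -0.04. The order of the 6 genes was the same in WT alone and in *Fmr1* KO alone, and the difference of Calcrl over Ackr3 was 0.52 with a pseudocount of 1.

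The number of loci at a limma adjusted p below 0.05, 23 lower and 12 higher, depended on the settings. It was 9 and 6 without an FPKM minimum, 14 and 7 without the trend, 50 and 38 after rescaling without Bc1 and 36 and 29 with the replicate block. The number higher was 20 with an FPKM minimum of 5. Leaving out 1 library gave 10 to 14 lower and 4 to 8 higher. No gene of the pathway lists was called under any of these settings. In the marker lists, 1 gene was lower and 0 higher. The number lower was 0 with a pseudocount of 0.01, without an FPKM minimum, with a minimum of 5 or of 1 over all libraries, without the trend and with the replicate block, 4 after rescaling without Bc1, and 0 to 1 with 1 library left out. The number higher was 1 with the replicate block. The cause of these shifts was not tested. Deviations from the genotype mean correlated at 0.243, 0.0577 and 0.0801 between same-numbered libraries for replicates 1, 2 and 3. Replicate 1 against other numbers gave -0.152 to -0.119, and WT replicate 2 against KO-labelled replicate 3 gave 0.0658. Whether same-numbered libraries shared a source was not tested. The labels give only replicate numbers, so the main fit did not pair the libraries. With the replicate block the standard error of Ramp3 was 0.09, against 0.15 without it. After rescaling without Bc1 the standard errors were larger, at 0.17 for Adm, Ramp1 and Ramp2 and 0.18 for Ramp3. In the main fit they were 0.08 for Adm and Ramp2, 0.06 for Ramp1 and 0.15 for Ramp3. Overlap between genotypes was judged on FPKM as deposited and was not looked at after rescaling.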
